A study of Mus musculus with 16 samples.

Results

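The unfolded protein response is the set of signals by which a cell matches its protein-folding capacity to the load of new protein entering the endoplasmic reticulum (ER). The 10 genes described here were chosen by name for their place in that response, with earlier results of these data known. All 10 were found by symbol among the 19505 genes measured. Hspa5 encodes BiP, the main Hsp70 chaperone of the ER, and Hsp90b1 encodes its Hsp90 counterpart, GRP94. Dnajb9 encodes ERdj4, a DnaJ cofactor of BiP, and Creld2 encodes an ER-resident protein induced under ER stress. Eif2ak3 encodes the sensor kinase PERK and Atf6 a membrane-bound transcription factor released by cleavage. Xbp1, Atf4, Atf5 and Ddit3 encode transcription factors that act downstream of the sensors.

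In a resting cell BiP binds the lumenal parts of the sensors, and unfolded protein draws it away. PERK then phosphorylates the initiation factor eIF2α, which slows most translation and favours that of Atf4, Atf5 and Ddit3, while the sensor IRE1 removes an intron from Xbp1 mRNA and ATF6 travels to the Golgi to be cleaved. In olfactory sensory neurons a newly made odorant receptor engages this pathway, and the PERK-driven translation of Atf5 takes part in the feedback that stabilises the choice of 1 receptor. The degree of ER stress set by a receptor has also been linked to the guidance of its axons. Much of this control is by translation, splicing or cleavage, none of which is read by gene-level mRNA signals such as those used here.

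The samples came from S100a5-tauGFP mice, whose reporter is named for S100a5, a calcium-binding protein gene raised by activity in olfactory sensory neurons, so GFP marks neurons with recent activity. The labels read here do not give zygosity or strain background, and all groups carried the reporter. The 24 mice, of both sexes and 7 to 12 weeks old, were kept singly in chambers of flowing clean air (3.1 L/min) for 40 h, and from hour 26 they received pulses of 10 s every 20 min of either the odorant, labelled indole/ionone, or filtered air (the vehicle). Olfactory mucosa was dissociated and sorted into GFP+ and GFP- cells in pools of 3 mice, which gave 4 odor and 4 vehicle pools, each with a GFP+ and a GFP- sample, and 16 Clariom S arrays in all. The 4 groups of 4 samples are therefore odor GFP+, odor GFP-, vehicle GFP+ and vehicle GFP-.

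Values are log2 signals, so a difference of 1 is a doubling. Levels of different genes were not set against each other, since probes differ in brightness. Pairs of arrays correlated at 0.974 to 0.987 within a group and at 0.946 to 0.965 between fractions. The median over genes was 6.61 to 6.68 on GFP+ arrays, lower than the 6.87 to 7.06 on GFP- arrays, and probes made to read background had medians of 5.63 to 6.05. The odor GFP- sample of replicate 3 stood apart on the second principal component, at 58.9 against at most 24.6 elsewhere. Eif2s3y, Uty and Kdm5d, which are Y-linked, were between 2.76 and 4.09 in both pools numbered 3 and between 6.42 and 12.09 in the other pools. Omp, which marks mature sensory neurons, had mean levels of 18.50 and 18.48 in odor and vehicle GFP+ and of 18.44 and 18.40 in odor and vehicle GFP- samples, so both fractions held neuronal RNA. The reporter's gene, S100a5, differed by 1.29 ± 0.12 in favour of GFP+ cells (SE over 8 pools). In such bulk samples fewer cells of a type and less RNA per cell cannot be told apart.

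The promoters are shown first, because ATF6 and spliced XBP1 are known to act on chaperone genes through the ER stress response element, ERSE, made of CCAAT and CCACG separated by 9 bases. RefSeq promoters (GRCm38.p6) were held for 9 of the 10 genes, 10 promoters in all, and the 250 bases before each start site were searched on both strands. Atf6 was not among them. The ERSE was found in 3 of the 9 genes, Hspa5, Hsp90b1 (2 copies) and Creld2, while it occurred in 37 of 32851 promoters of all genes (0.113%). The stretches are given 5′ to 3′ on the gene's strand, with the CCAAT and CCACG blocks in capitals; where the element lies on the opposite strand the blocks read CGTGG and ATTGG.
Hspa5, chr2:34772015-34772053, + strand: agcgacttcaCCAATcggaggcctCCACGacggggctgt
Hsp90b1, chr10:86705523-86705666, - strand: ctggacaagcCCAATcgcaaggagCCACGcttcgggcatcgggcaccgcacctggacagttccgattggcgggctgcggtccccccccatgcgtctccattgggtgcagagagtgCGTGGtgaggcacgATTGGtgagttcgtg
Creld2, chr15:88819510-88819548, + strand: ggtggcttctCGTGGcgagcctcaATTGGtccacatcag
The Hspa5 element spans positions -65 to -47 from the start site. Those of Hsp90b1 span -212 to -194 and, on the opposite strand, -107 to -89, and that of Creld2 spans -126 to -108 on the opposite strand. A match of letters is a description and not evidence of binding.

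Other elements of the pathway were not found in these windows. The related ERSE-II, ATTGG and CCACG separated by 1 base, was in 10 of all promoters (0.0304%). The XBP1 element TGACGTGG was in 185 (0.563%), the ATF4 element TGATGNAA in 1134 (3.45%) and the cyclic AMP element TGACGTCA, which shares its first 6 letters with the XBP1 element, in 508 (1.55%). None of these 4 was found before the start of any of the 9 genes.

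GFP+ cells were compared with GFP- cells first, by the log2 difference between the fractions of each pool. Over the 8 pools, Dnajb9 was higher in GFP+ cells and Xbp1 was lower, both by less than a doubling. The other 8 genes did not pass the test: Atf5 and Creld2 leaned to the GFP+ side in every pool, Hsp90b1 leaned to the GFP- side in 7 of 8 pools, and Hspa5, Atf4, Ddit3, Eif2ak3 and Atf6 had mean differences of 0.11 or less in size. The test was limma with Benjamini-Hochberg adjustment over all genes, and a gene passed at an adjusted p under 0.05. That made 2 of 10 genes, 1 in each direction. Of all 19505 genes, 32.2% passed, 18.3% higher and 13.9% lower, so the share among the 10 was below that of the array as a whole. Their median difference was -0.02 against 0.12 over all genes, and their median size of difference was 0.17 against 0.23. Of the 10, 4 had 1 sign in all 8 pools, as did 24.2% of all genes. With both arms together the levels of the fractions overlapped for all 10, while 11.3% of all genes had no such overlap. Overlap within 1 arm is given below only as a description, since its share over all genes was not computed.

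**Figure D1:**
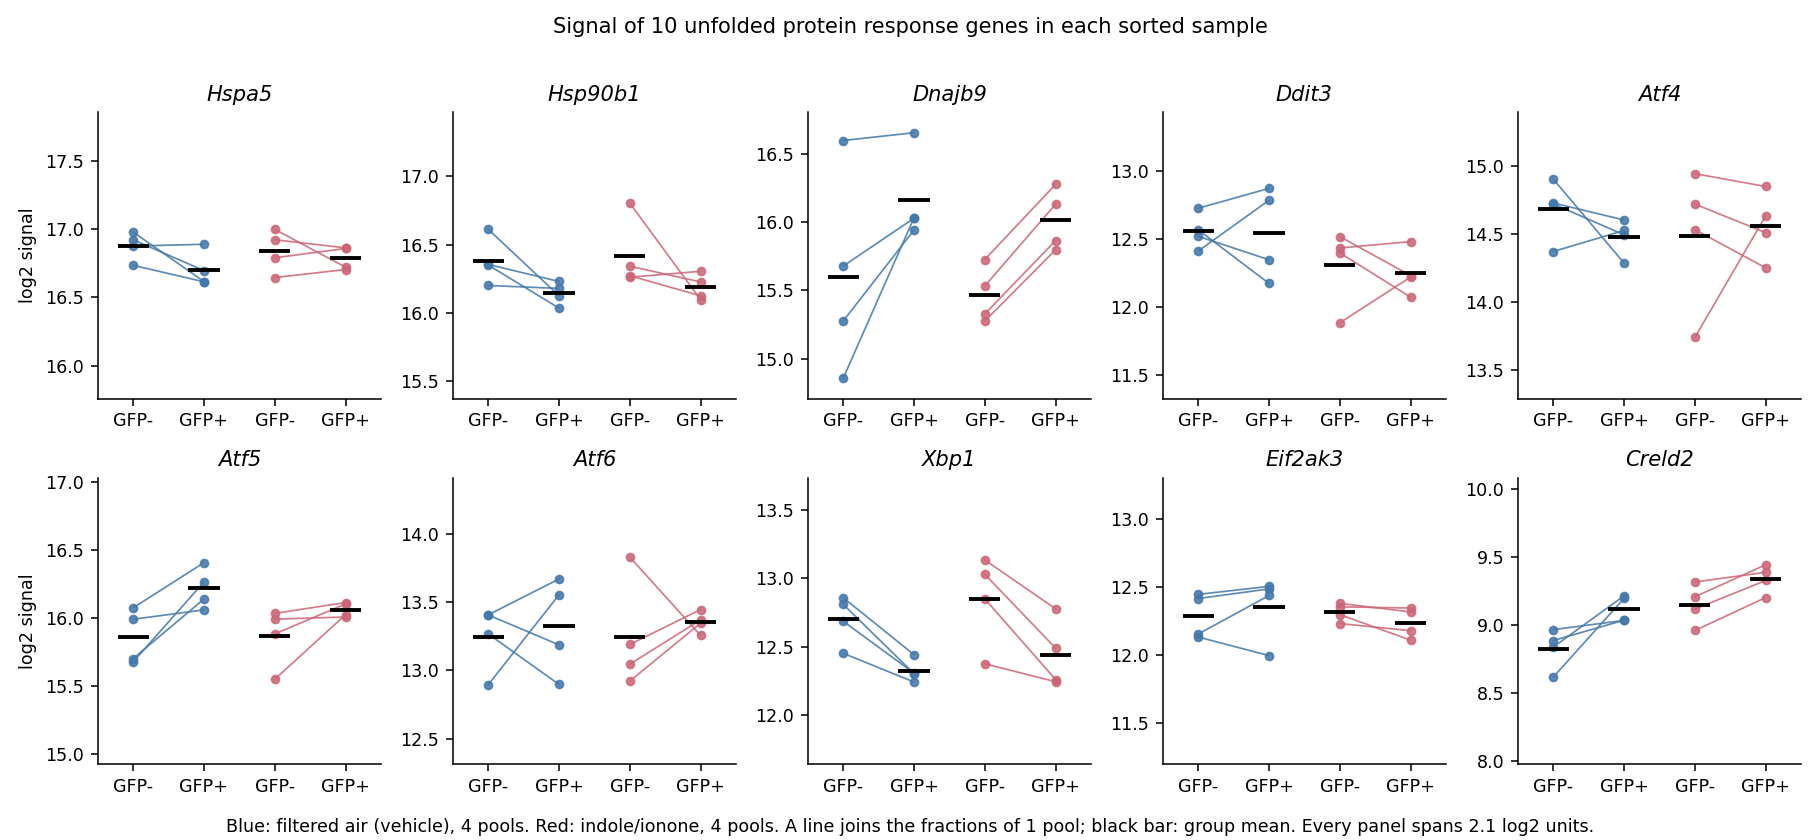
Log2 signal (vertical axes, each spanning the same range) of the 10 unfolded protein response genes in GFP- and GFP+ samples of vehicle (blue) and odor (red) pools. Points are samples, lines join the fractions of 1 pool and black bars are group means of 4; the lines rise in all 8 pools for Dnajb9, Atf5 and Creld2 and fall in all 8 for Xbp1.

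Among the chaperones, BiP mRNA was near level between the fractions. Hspa5 was at 16.86, 16.70, 16.72 and 16.86 in odor GFP+ samples of replicates 1 to 4 and at 16.79, 16.65, 17.00 and 16.92 in the GFP- samples of the same pools. In vehicle pools it was at 16.62, 16.89, 16.62 and 16.70 in GFP+ and 16.74, 16.88, 16.98 and 16.92 in GFP- samples. The groups overlapped, and both pools numbered 3 had the lowest within-pool difference of their arm. The mean difference was -0.11 ± 0.09 (SE, n = 8 pools, limma adjusted p = 0.362), with a 95% interval from -0.31 to 0.09.

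Hsp90b1, whose product folds a narrower set of membrane and secreted proteins, was at 16.23, 16.12, 16.10 and 16.30 in odor GFP+ and at 16.34, 16.27, 16.80 and 16.26 in odor GFP- samples. Its vehicle levels were 16.23, 16.18, 16.13 and 16.03 in GFP+ and 16.35, 16.20, 16.61 and 16.35 in GFP- samples. The GFP- samples of both pools numbered 3 were the highest of their groups, and the groups overlapped. The difference was -0.23 ± 0.11 (limma adjusted p = 0.119), and -0.16 without the odor pool of replicate 3 and -0.11 without both pools numbered 3.

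Dnajb9, the BiP cofactor that also holds IRE1 inactive, differed most. It was at 15.87, 16.28, 16.13 and 15.80 in odor GFP+ and at 15.33, 15.73, 15.53 and 15.28 in odor GFP- samples, without overlap. Vehicle pools gave 16.03, 15.94, 16.66 and 16.03 in GFP+ and 14.85, 15.28, 16.60 and 15.68 in GFP- samples. There the groups overlapped, through replicate 3, which was high in both fractions. The within-pool differences were 0.54, 0.55, 0.60 and 0.52 in odor pools and 1.18, 0.67, 0.06 and 0.35 in vehicle pools. They were thus alike among odor pools (SD 0.03) and spread widely among vehicle pools (SD 0.48). The mean of 0.56 ± 0.12, a 1.47-fold higher signal in GFP+ cells (95% interval of the log2 difference 0.29 to 0.82), passed the test (limma adjusted p = 0.00431).

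Within each arm Dnajb9 was the 1 gene of the 10 to pass. The difference was 0.55 ± 0.17 in odor pools (adjusted p = 0.0429), where 18.6% of all genes passed and 7.96% were higher, and 0.56 ± 0.17 in vehicle pools (adjusted p = 0.0378), where 19.7% passed and 8.86% were higher. The SE pools the spread of both arms. The calls within an arm were near the threshold. In odor pools the call was lost without any 1 of the 4 odor pools (adjusted p 0.107 to 0.113) and without vehicle replicate 2 (0.0618) or 4 (0.0569). In vehicle pools it was lost without vehicle replicate 1 (difference 0.36, adjusted p = 0.177), 2 (0.131) or 4 (0.0626) and without odor replicate 1 (0.0533), 2 (0.0544) or 4 (0.0543). In order of group means, vehicle GFP+ (16.17) and odor GFP+ (16.02) were neighbours within their spread, followed by vehicle GFP- (15.60) and odor GFP- (15.47).

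Creld2, the ER stress-induced gene with an ERSE on the opposite strand, was at 9.44, 9.33, 9.20 and 9.39 in odor GFP+ and at 9.21, 9.12, 8.96 and 9.32 in odor GFP- samples. In vehicle pools it was at 9.21, 9.03, 9.20 and 9.04 in GFP+ and 8.84, 8.97, 8.62 and 8.89 in GFP- samples. The vehicle fractions did not overlap, whereas the odor fractions did, as did the fractions of both arms together. GFP+ cells were on the higher side in 8 of 8 pools, with differences from 0.07 to 0.58, but the mean of 0.24 ± 0.09 did not pass (limma adjusted p = 0.0675). The 3 genes with an ERSE, Hspa5, Hsp90b1 and Creld2, thus had differences of -0.11, -0.23 and 0.24, none past the threshold.

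**Figure D2:**
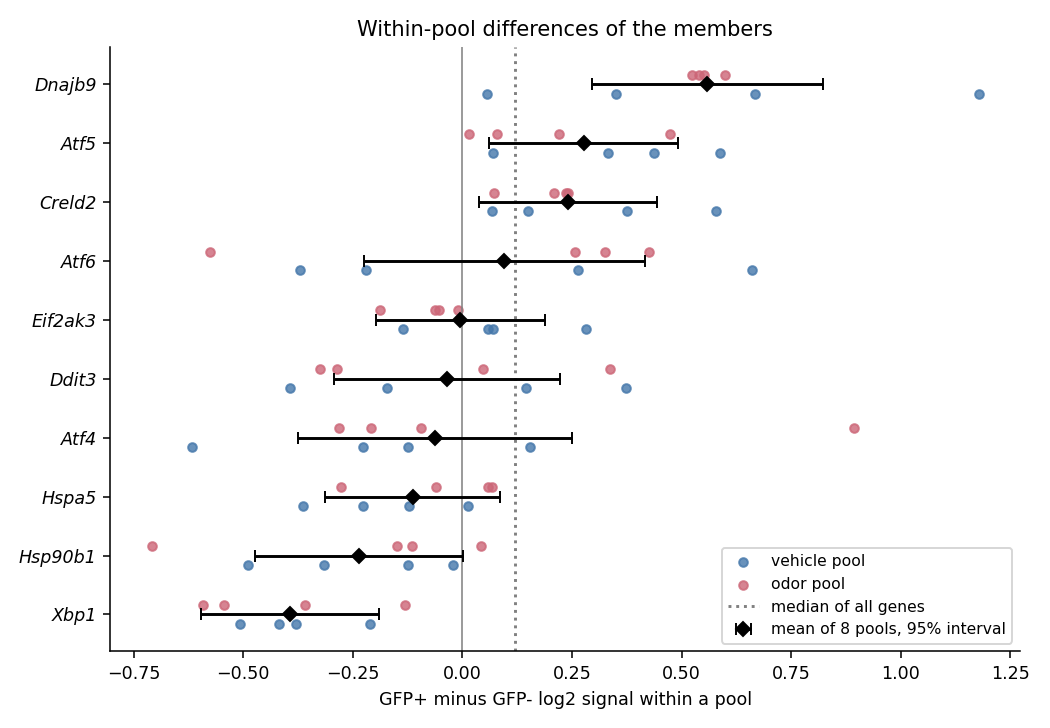
GFP+ minus GFP- log2 signal within each pool (horizontal axis) for the 10 genes, with odor pools in red, vehicle pools in blue, and the mean of 8 pools with its 95% interval in black. The dotted line is the median of all genes, 0.12; the interval of Dnajb9 lies above 0 and above that median, and that of Xbp1 lies below 0.

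The 2 sensors showed no difference beyond the spread between pools. Eif2ak3 was at 12.11, 12.35, 12.18 and 12.32 in odor GFP+ and 12.30, 12.35, 12.23 and 12.38 in odor GFP- samples. Its vehicle levels were 12.00, 12.44, 12.50 and 12.49 in GFP+ and 12.13, 12.15, 12.45 and 12.42 in GFP- samples. All groups overlapped, and the vehicle GFP+ sample of replicate 1 was the lowest of its group. The mean difference of PERK mRNA was -0.00 ± 0.09 (limma adjusted p = 0.975, 95% interval -0.20 to 0.19).

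Atf6 had a wide spread between pools. It was at 13.35, 13.45, 13.26 and 13.37 in odor GFP+ and at 12.92, 13.19, 13.83 and 13.05 in odor GFP- samples, where replicate 3 was the highest. Vehicle pools gave 13.55, 13.67, 13.19 and 12.90 in GFP+ and 12.89, 13.41, 13.41 and 13.27 in GFP- samples. The difference of 0.10 ± 0.15 (limma adjusted p = 0.645, 95% interval -0.22 to 0.42) became 0.21 without the odor pool of replicate 3 (adjusted p = 0.249) and 0.26 without both pools numbered 3 (adjusted p = 0.183). Its sign was positive in 5 pools and negative in 3.

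Of the transcription factors, Xbp1 was lower in GFP+ cells. It was at 12.78, 12.26, 12.24 and 12.49 in odor GFP+ and at 13.14, 12.85, 12.37 and 13.03 in odor GFP- samples. In vehicle pools it was at 12.30, 12.24, 12.44 and 12.31 in GFP+ and at 12.81, 12.45, 12.86 and 12.69 in GFP- samples. The vehicle fractions did not overlap, and the odor fractions overlapped through the GFP- sample of replicate 3. Differences were -0.36, -0.59, -0.13 and -0.54 in odor pools and -0.51, -0.21, -0.42 and -0.38 in vehicle pools. The mean of -0.39 ± 0.09, a 1.31-fold lower signal in GFP+ cells (95% interval of the log2 difference -0.60 to -0.19), passed the test (limma adjusted p = 0.00740). Within an arm it did not pass, at -0.41 ± 0.13 in odor pools (adjusted p = 0.0524) and -0.38 ± 0.13 in vehicle pools (0.0657). Without odor replicate 3, both did, at -0.50 (0.0333) and -0.38 (0.0450). In order of group means, odor GFP- (12.85) and vehicle GFP- (12.70) were neighbours within their spread, as were odor GFP+ (12.44) and vehicle GFP+ (12.32). The probe reads total Xbp1 mRNA and not its spliced form.

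Plasma cells are known for high Xbp1, and most of a list of plasma and B cell markers were also lower in GFP+ cells. Of 11 measured plasma and B cell markers, 8 were lower and 1 was higher in GFP+ cells. The log2 of their summed signal ranged from 7.72 to 7.90 in odor GFP+, 11.1 to 11.9 in odor GFP-, 7.80 to 7.93 in vehicle GFP+ and 10.4 to 11.6 in vehicle GFP- samples. Jchain, the joining chain of secreted antibodies, differed by -5.42 ± 0.38, though it was under background in both GFP+ groups. Mzb1, Tnfrsf17, Prdm1, Irf4, Derl3 and Pou2af1 were under background in every group. The 8 lower markers therefore include some that were not resolved from background. In the odor GFP- group the mean level of the 11 markers was highest in replicate 3 (6.24), where Xbp1 was lowest (12.37). In the vehicle GFP- group it was also highest in replicate 3 (6.08), where Xbp1 was highest (12.86). The part of plasma cells in the Xbp1 result was not tested.

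Atf4, the main effector of PERK, was at 14.85, 14.25, 14.63 and 14.51 in odor GFP+ and 14.94, 14.53, 13.74 and 14.72 in odor GFP- samples. Its vehicle levels were 14.29, 14.60, 14.52 and 14.49 in GFP+ and 14.90, 14.73, 14.37 and 14.72 in GFP- samples. The groups overlapped, and the GFP- samples of both pools numbered 3 were the lowest of their groups. The difference was -0.06 ± 0.14 (limma adjusted p = 0.763). It was -0.20 without the odor pool of replicate 3 (0.190) and -0.26 without both pools numbered 3 (0.0913).

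Atf5, whose translation links receptor synthesis to the feedback, was at 16.11, 16.01, 16.02 and 16.10 in odor GFP+ and 16.03, 15.99, 15.55 and 15.88 in odor GFP- samples. Vehicle pools gave 16.26, 16.14, 16.06 and 16.41 in GFP+ and 15.68, 15.70, 15.99 and 16.07 in GFP- samples. GFP+ cells were on the higher side in 8 of 8 pools, by 0.02 to 0.59, although the groups overlapped. The mean of 0.28 ± 0.10 lay just outside the threshold (limma adjusted p = 0.0503) and just inside it without vehicle replicate 3, at 0.32 (0.0360).

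Ddit3, which encodes CHOP, a factor tied to prolonged ER stress, was at 12.48, 12.07, 12.22 and 12.23 in odor GFP+ and 12.43, 12.40, 11.89 and 12.52 in odor GFP- samples. In vehicle pools it was at 12.17, 12.35, 12.87 and 12.78 in GFP+ and 12.57, 12.52, 12.73 and 12.41 in GFP- samples. The groups overlapped, with 4 pools positive and 4 negative, and the difference was -0.03 ± 0.12 (limma adjusted p = 0.844).

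These signs depend in part on how arrays are scaled, since the median gene lay lower in GFP+ samples. With each array centred on its median, the all-gene median went from 0.12 to 0.46, and 16166 genes passed instead of 6277, with 88.0% instead of 56.8% of them higher. Under quantile normalization 7439 passed, 64.9% higher. Centring raised Dnajb9 to 0.90 and took Xbp1 to -0.05, where it no longer passed (adjusted p = 0.607); the all-gene median then being 0.46. It turned Hspa5, Ddit3 and Eif2ak3 to 0.23, 0.31 and 0.34, where they passed, and Hsp90b1 and Atf4 to 0.11 and 0.28, where they did not. Relative to 9 mature neuron markers, which were themselves higher in GFP+ cells by 0.17 on average, Dnajb9 differed by 0.39, Atf5 by 0.11, Creld2 by 0.07 and Xbp1 by -0.56, with no test. Dnajb9 passed in 15 of 15 other settings (0.46 to 0.90, adjusted p 1.02e-04 to 0.0396) and Xbp1 in 14 of 15 (-0.46 to -0.05, adjusted p 0.00175 to 0.607). Atf5 passed in 5 of the 15 and Creld2 in 3. Of these settings, the mean of probes could not change their values, since each of these genes has 1 probe. A filter on low values, another moderation and dropping the pool block changed the adjusted p but not the difference.

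**Figure D3:**
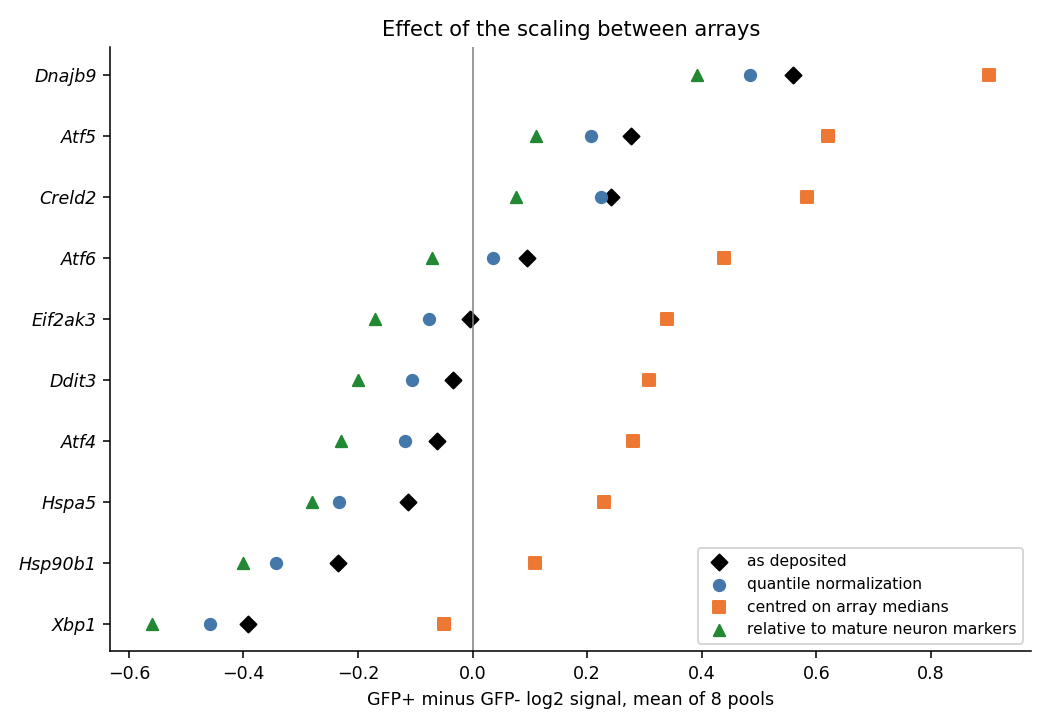
Mean GFP+ minus GFP- log2 difference over 8 pools (horizontal axis) of the 10 genes as deposited, after quantile normalization, after centring each array on its median, and relative to 9 mature neuron markers. Centring moves every gene to the right, Dnajb9 stays to the right of 0 at 0.39 to 0.90 and Xbp1 stays to its left at -0.56 to -0.05.

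Odor-exposed pools were then compared with filtered-air pools, which asks whether the odor pulses changed these mRNAs. No difference passed the test, in either fraction or in the within-pool enrichment. Among GFP+ cells the differences, odor minus vehicle, ran from -0.29 to 0.22 and the groups overlapped for all 10 genes, while 3.21% of all genes had groups that did not overlap. Ddit3 was at -0.29 ± 0.18 (SE, n = 4 against 4, limma adjusted p = 0.927, 95% interval -0.69 to 0.10) and Creld2 at 0.22 ± 0.12 (adjusted p = 0.927, interval -0.05 to 0.49). Hspa5 was at 0.08 ± 0.12 (interval -0.19 to 0.35), Dnajb9 at -0.15 ± 0.18 (-0.55 to 0.26), Atf5 at -0.15 ± 0.12 (-0.43 to 0.12) and Xbp1 at 0.12 ± 0.15 (-0.20 to 0.44). Over the 10 genes, the bound farther from 0 was between 0.31 and 0.69 in size, which is how large a change these intervals still allow. By limma, 0 of the 10 and 0 of 19505 genes passed (0% of all genes); at an unadjusted p under 0.05 there were 0 of the 10 and 1070 of all genes.

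In GFP- cells, Creld2 was again on the odor side, at 0.32 ± 0.15 (limma adjusted p = 1.00, interval -0.01 to 0.66), and Ddit3 on the vehicle side, at -0.25 ± 0.18 (interval -0.63 to 0.14). GFP+ and GFP- samples of a pool share mice, so the fractions are not independent. Dnajb9 was the least precise, at -0.14 ± 0.32. Of the 10 genes 0 passed, and of all genes 1 (0.00513%); at an unadjusted p under 0.05 these counts were 0 and 697. The groups overlapped for all 10 genes, and 2.48% of all genes had groups that did not.

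The enrichment itself, GFP+ minus GFP-, was set between the arms as a test of the difference. For Dnajb9 it differed by -0.01 ± 0.24 (odor minus vehicle, 95% interval -0.54 to 0.52) and for Xbp1 by -0.03 ± 0.18 (-0.43 to 0.38). The largest in size was that of Atf4, at 0.28 ± 0.28 (-0.35 to 0.91). By limma 0 of the 10 and 0 of all genes passed (0%), and at an unadjusted p under 0.05 there were 0 of the 10 and 654 of all.

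**Figure D4:**
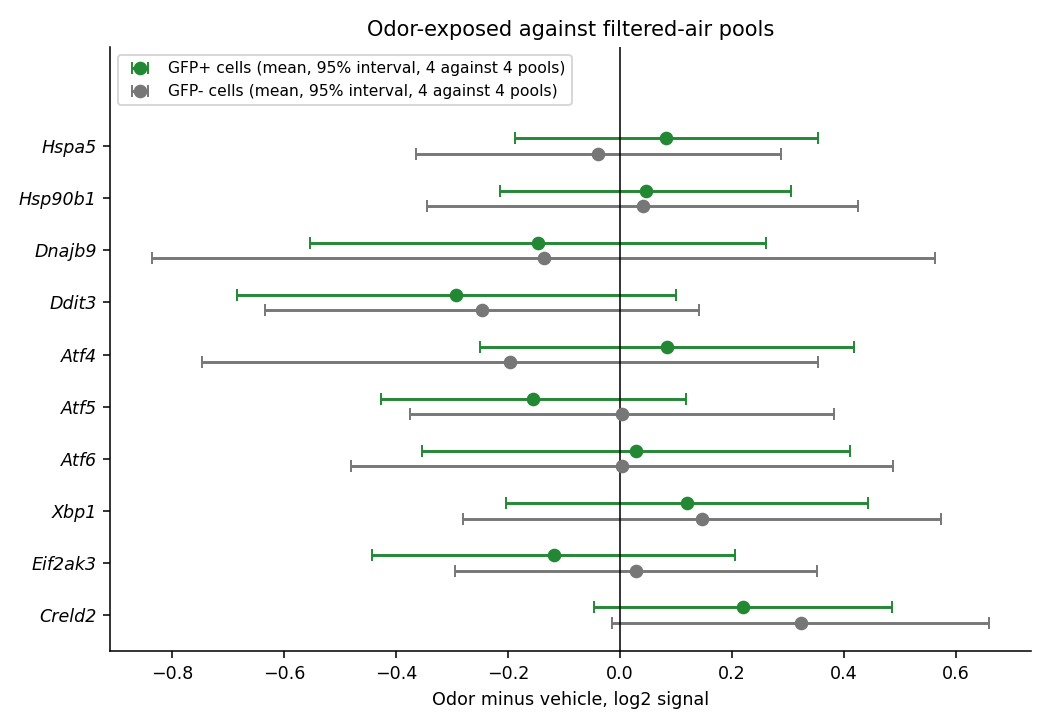
Odor minus vehicle log2 signal (horizontal axis) of the 10 genes in GFP+ cells (green) and GFP- cells (grey), as means with 95% intervals from 4 against 4 pools. Every interval crosses 0, and those of Creld2 lie mostly above it.

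The other genes of the pathway were described from 5 lists of 127 genes, of which 118 were measured. In GFP+ against GFP- cells 13 were higher and 13 lower, with a median of 0.06, against 18.3% and 13.9% of all genes. With arrays centred on their medians 89 of the 118 passed, as did 16166 of all 19505 genes. Between odor and vehicle 0 of the 118 passed by limma, in GFP+ cells, in GFP- cells and in the enrichment.

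Of 25 measured folding genes, 4 were higher in GFP+ cells and 0 were lower, with a median difference of 0.08. Fkbp2, a prolyl isomerase of the ER, was higher by 0.58 ± 0.12 (limma adjusted p = 0.00325), with the same sign in 8 of 8 pools. Dnajb11, another DnaJ cofactor of BiP, was higher by 0.47 ± 0.13 and missed the threshold only without odor replicate 1, at 0.39 (adjusted p = 0.0515). Sdf2, part of an ER chaperone complex, was higher by 0.45 ± 0.12. The prolyl isomerase Fkbp14 was higher by 0.44 ± 0.13 over both arms (limma adjusted p = 0.0274) and by 0.64 ± 0.19 in vehicle pools (adjusted p = 0.0358). Calr and Canx, the lectin chaperones, did not pass, at 0.13 ± 0.11 and -0.11 ± 0.12.

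Genes of degradation and export gave 4 higher and 1 lower among 38, with a median of 0.12. Sec24d, a coat protein of vesicles leaving the ER, was higher by 0.52 ± 0.10 (limma adjusted p = 0.00252). Wfs1, an ER membrane protein, was higher by 0.54 ± 0.15 and missed the threshold without odor replicate 4 (adjusted p = 0.0566) or vehicle replicate 2 (0.0576). Selenos, a selenoprotein of ER-associated degradation, was higher by 0.51 ± 0.15 and missed it without vehicle replicate 2 (0.0647), 3 (0.0687) or 4 (0.0573). Edem1, a mannosidase-like protein that hands misfolded glycoproteins to degradation, was lower. It was at 9.35 ± 0.41 and 9.31 ± 0.25 (SD, n = 4) in odor and vehicle GFP+ and at 10.25 ± 0.077 and 10.29 ± 0.15 in the GFP- samples. The difference was -0.94 ± 0.12 (adjusted p = 7.66e-05), negative in 8 of 8 pools and in all settings tried (-1.02 to -0.60).

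Targets of PERK and ATF4 were lower more often than higher in the deposited scaling, with 8 lower and 2 higher among 29 and a median of -0.09. Of all genes 13.9% were lower and 18.3% higher. Counts by list were not made with arrays centred on their medians, which took the all-gene median from 0.12 to 0.46. Atf3, a stress-induced transcription factor, was at 8.42 ± 0.41 and 9.06 ± 0.31 in odor and vehicle GFP+ and at 10.70 ± 0.42 and 10.87 ± 0.72 in the GFP- samples. Its difference of -2.04 ± 0.20 (limma adjusted p = 1.08e-05) was the largest of the 118. Nupr1, a small stress-induced chromatin protein, differed by -1.65 ± 0.27 (adjusted p = 7.01e-04). Slc7a11, a subunit of the cystine-glutamate exchanger, differed by -1.47 ± 0.30, but all 8 GFP+ values were under the background probes of their array. Set against that background, GFP- values were 2.26-fold higher on average over the pools. They ran from 5.85 to 9.01, and the lowest, of odor replicate 2, was under the background of its GFP+ array (6.01). On the higher side were Trib3, a pseudokinase that restrains ATF4, at 0.53 ± 0.12 (adjusted p = 0.00647), and Ppp1r15a, which directs the phosphatase that reverses PERK's effect on eIF2α, at 0.50 ± 0.12 (adjusted p = 0.00811). Both were positive in 8 of 8 pools.

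Many markers of dissociation stress and of other cells were also lower in GFP+ cells. Of 13 immediate-early and heat shock genes, a list that includes Atf3, 12 were lower in GFP+ cells, and the log2 of their summed signal was 16.4 to 16.7 in GFP+ groups and 17.3 to 17.9 in GFP- groups. Of 12 neutrophil markers, 12 were lower, with summed signals of 8.99 to 10.4 in odor GFP+, 18.2 to 19.4 in odor GFP-, 9.14 to 9.92 in vehicle GFP+ and 18.0 to 19.5 in vehicle GFP- samples. In GFP+ cells 8 of the 12, among them S100a8, Camp and Mpo, were under background. Lower in GFP+ cells were also 11 of 11 microvillar, 9 of 10 macrophage, 6 of 6 T and NK cell, 6 of 7 globose basal, 7 of 10 sustentacular, 4 of 5 erythroid, 4 of 8 stromal and vessel and 4 of 12 gland markers, and none was higher. However, 7 of the 8 stromal and vessel and 6 of the 12 gland markers were under background in every group. So were Chat and Sh2d6 (microvillar), Cd3d and Cd3g (T cell), Klf1 and Epor (erythroid), Neurog1 and Lgr5 (globose basal) and Hes1 (sustentacular). These counts of lower markers therefore include some that were not resolved from background. Of 13 immature neuron markers 5 were lower, with Gng8 at -4.27 ± 0.22. Of 13 mature neuron markers 3 were higher, against 18.3% of all genes. That list includes S100a5, the gene of the reporter used for sorting. The part of these cell types in the differences of the 10 genes and of the lists was not tested.

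Sensors and regulators gave 2 higher and 4 lower among 18, with a median of 0.04. Creb3l1, an ER-anchored transcription factor cleaved like ATF6, was at 11.58 ± 0.32 and 11.57 ± 0.28 in odor and vehicle GFP+ and at 10.87 ± 0.52 and 10.64 ± 0.17 in the GFP- samples. It was higher by 0.82 ± 0.12 (limma adjusted p = 2.80e-04), positive in 8 of 8 pools and in each arm on its own (0.71 ± 0.17 and 0.93 ± 0.17). Nfe2l2, the antioxidant factor NRF2 and a substrate of PERK, was higher by 0.52 ± 0.12. Eif2ak2, the double-stranded RNA kinase PKR, was lower by 0.58 on the log2 scale (difference -0.58 ± 0.13), which centring on array medians reduced to -0.24 (adjusted p = 0.0942). Eif2ak4, the amino acid sensor GCN2, at -0.49 ± 0.17 (adjusted p = 0.0442), passed in 6 of 15 other settings and missed the threshold without odor replicate 1 (adjusted p = 0.107) or 3 (0.0872) and without vehicle replicate 2 (0.0649), 3 (0.101) or 4 (0.112). Creb3l4 passed the test with lower values in GFP+ cells, but it was under the background probes on 16 of 16 arrays, so no fold is given.

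Of 8 genes of the receptor feedback, 1 was higher. Rtp2, which helps odorant receptors leave the ER, was higher by 0.27 ± 0.09 (limma adjusted p = 0.0462) in 8 of 8 pools, and passed in 6 of 15 other settings. Left out 1 at a time, it missed the threshold without each pool except vehicle replicate 3 (adjusted p 0.0587 to 0.116). Adcy3, the adenylyl cyclase of the odor response, whose appearance ends the receptor feedback, was at 0.21 ± 0.09 and did not pass (adjusted p = 0.0981). Of its 2 promoters, promoter 1 held the same ERSE, at positions -146 to -128, and promoter 2 held none. The stretch of promoter 1 is printed with the same capitals.
Adcy3, chr12:4133241-4133279, + strand: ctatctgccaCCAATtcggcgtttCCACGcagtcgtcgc

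**Figure D5:**
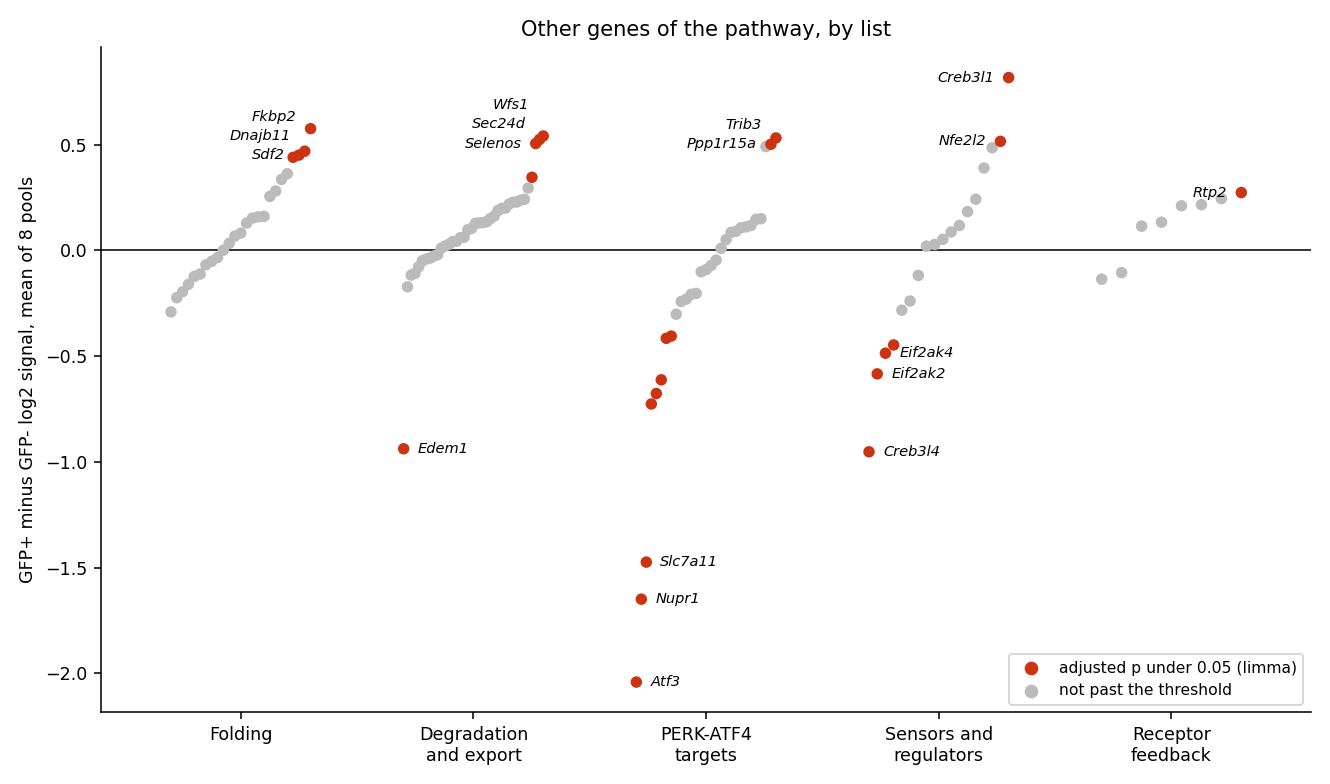
GFP+ minus GFP- log2 difference, mean of 8 pools (vertical axis), of 118 other pathway genes in 5 lists, ordered by value within each list. Red points passed the test and grey points did not; the PERK-ATF4 targets reach down to -2.04 (Atf3), while the folding genes span -0.29 to 0.58.

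The ERSE picked out no common direction. Its 37 promoters belonged to 35 genes, 26 of them measured. Of the 26, 2 were higher and 2 lower in GFP+ cells, against 18.3% and 13.9% of all genes. The median difference of the 26 was 0.08, against 0.12 over all genes, with a range from -0.72 to 0.69. Besides Hspa5, Hsp90b1 and Creld2, 7 genes of the folding and degradation lists held the ERSE, Calr, Canx, Dnajc3, Pdia6, Ero1b, Derl3 and Syvn1. Their differences ran from -0.22 (Ero1b) to 0.20 (Syvn1), and 0 of the 7 passed.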

How the data were processed

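The values were the authors' deposited log2 signals, 1 column per array. Per the submitters' processing notes they came from Affymetrix Expression Console; its version, the background correction and the normalization were not stated there. Base 2 was inferred, since values ran from 1.67 to 19.35. Of 28846 probes, 19572 had 1 gene symbol and 9274 none in the platform annotation. For the 55 genes with several probes, the one with the highest mean was kept, which left 19505 genes.

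Pools were taken from the sample titles, where 2 vehicle pools carry the number 3; the later was numbered 4. Tests used limma 3.58.1 (R 4.3.3), two-sided, with Benjamini-Hochberg adjustment over all genes. Fractions were compared by within-pool differences with arm as a term, and odor with vehicle in each fraction. Each p-value rests on the spread between pools, each of 3 mice. Deviations from group means correlated at 0.109 to 0.249 within pools. Between same-numbered odor and vehicle samples they correlated at 0.114 to 0.242 in GFP+ and at 0.0664 to 0.332 in GFP- cells. The odor minus vehicle tests reported are unpaired, and the replicate number as a block was run as an alternative. No arrays were identical.

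The 10 genes and the lists were chosen with earlier results of these data known. Beyond the 10, up to 3 genes per list and direction with the largest difference past the threshold are named; Calr, Canx, Adcy3 and the genes holding an ERSE were named after their values were seen. The code was tested on simulated data. The number of arrays limits the precision. Alternatives were the scaling, a filter on low values, the moderation, the mean of probes, the pool or replicate block and leaving out pools.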

Additional observations from a re-analysis of the deposited data

Results flagged for a closer look

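In 5 of the 60 groups of 4 values examined (10 genes, 4 groups of levels and 2 arms of within-pool differences), 1 sample lay far from the other three, by a gap above Dixon's 95% critical value for 4 samples; chance flags about 1 in 20 such groups. The Hsp90b1 level of the odor GFP- sample of replicate 3 was 16.80, against 16.26 to 16.34 in the others. In the same pool the within-pool difference of Atf4 was 0.89, against -0.28 to -0.09, and that of Atf6 was -0.57, against 0.26 to 0.43. The array of that GFP- sample is the one that stood apart on the second principal component. The Dnajb9 level of the vehicle GFP+ sample of replicate 3 was 16.66, against 15.94 to 16.03, and its GFP- partner was at 16.60. The Eif2ak3 level of the vehicle GFP+ sample of replicate 1 was 12.00, against 12.44 to 12.50, and its GFP- partner, at 12.13, was the lowest of its group.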

How the results depend on the processing

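Counts of genes passing, of the 10 and of the 118 others, are given against 2 and 26 over both arms, 1 and 13 in odor pools and 1 and 14 in vehicle pools. Centring on array medians gave 7 and 89, 3 and 68, and 4 and 68. Of all 19505 genes, 16166, 12346 and 12265 then passed, against 6277, 3620 and 3835 in the deposited scaling. With centring, Hspa5, Ddit3 and Eif2ak3 turned to 0.23, 0.31 and 0.34 and passed. Under quantile normalization Xbp1 passed within each arm and Dnajb9 did not, while 4459 of all genes passed in odor and 4729 in vehicle pools. A filter on low values gave 4 of the 10 over both arms and 2 in each arm. Of the 11234 genes it kept, 4947 passed over both arms, 2878 in odor and 3131 in vehicle pools. Dropping the pool block gave 4 over both arms and 0 in each arm, and trend and robust moderation gave 0 in odor pools. Of all genes, 5881, 3273 and 3465 passed without the block, and 3455 passed in odor pools with that moderation. Leaving out 1 pool gave 2 to 3 and 19 to 26 over both arms, 0 to 1 and 4 to 14 in odor pools, and 0 to 2 and 5 to 16 in vehicle pools. Counts over all genes were then 5192 to 5889, 2677 to 3768 and 2788 to 4202. Without both pools numbered 3, a setting chosen after seeing the data, 8 others passed in odor pools and 2 of the 10 in vehicle pools (Dnajb9 and Atf5). Of all genes, 3072 and 3941 passed in those arms. Between odor and vehicle 0 of the 10 passed in any setting, and the replicate block, a paired analysis, left the counts at 0 in both fractions and in the enrichment. Of 1179 single-gene values under other settings, 78 changed sign, 75 of them where neither value passed, so signs of genes that did not pass are not firm. With 4 pools per arm, intervals between odor and vehicle were 0.52 to 1.40 wide, and genes near background were not resolved.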

Other observations

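Around their group means the 10 genes did not vary as 1 block. Over the 16 samples, which share mice within pools, 9 of 45 pairs had r above 0.5 and 5 had r below -0.5. Without the odor GFP- sample of replicate 3, left out after seeing the data, these counts were 3 and 3. Ddit3 and Xbp1 varied together (r = 0.71, rho 0.75, and 0.53 without that sample), as did Dnajb9 and Eif2ak3 (r = 0.51 and 0.53), whereas Hspa5 and Hsp90b1 had r = 0.53, and 0.35 without it. Among 11233 genes above background, those closest to Xbp1 were Babam1 (r = 0.94), Caprin2 (0.92) and Eef1e1 (0.92). The closest to Ddit3 were Ndufaf4 (0.93), Cox19 (0.90) and Crb3 (0.89), and to Hspa5 Trappc11 (0.85), H2ac1 (0.80) and Olfr1262 (0.78). These are descriptions, with no test.

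Ddit3 had a second probe, dimmer than the first. Its mean GFP+ minus GFP- difference over 8 pools was 0.25, positive in 6, against -0.03 for the probe used, and the probes correlated at 0.75 over the 16 arrays. Odor minus vehicle in GFP+ cells was -0.33 and -0.29 by the 2 probes.

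In both pools numbered 3, whose Y-linked genes were low, the within-pool difference was the lowest of its arm for Hspa5 and Hsp90b1 and the highest for Atf4 and Creld2. Thus 4 of the 10 genes lay at the same end in both arms, as did 25.7% of all genes.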
